A study of Homo sapiens with 46 samples.

Results

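The effect of a CDK4/6 inhibitor was examined in HCT116 cells from which Ku80 had been depleted for 4 days. Ku80, encoded by XRCC5, was fused to an auxin-inducible degron (Ku80-AID). The first group received the inhibitor together with indole-3-acetic acid (IAA) and doxycycline for 4 days (CDKi+IAA). The second received IAA and doxycycline for 4 days (IAA). Both groups therefore carried the degron allele and both had 100 µM IAA and 0.5 µg/mL doxycycline. The labels name neither the inhibitor nor its dose. HCT116 is a human colon carcinoma line, and each group held 1 library from each of the same 3 clonal lines, clones 1, 7 and 9. These 6 libraries are part of a series of 46 and were taken by their labels of treatment, time and clone. The same clones also gave 3 libraries after the inhibitor alone for 4 days (CDKi) and 3 after DMSO for 2 days (DMSO). Neither of these groups received IAA or doxycycline, so comparisons below of effects with and without IAA also differ in doxycycline. The test also took its estimate of spread from the other degron libraries of the series, among them clones in which MAVS was knocked out. A comparison of CDKi with DMSO differs in time as well as in the inhibitor, and these cannot be told apart.

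CDK4 and CDK6, with the D-type cyclins, phosphorylate the retinoblastoma protein RB, which releases the E2F factors that drive genes of DNA replication. Inhibitors of these kinases keep RB active and hold cells in G1. Ku80 and Ku70 form the ring that binds broken DNA ends for non-homologous end joining, and loss of Ku in human cells is known to disturb telomeres as well. Interferon-stimulated genes are switched on by a factor complex that includes IRF9 and binds the interferon-stimulated response element (ISRE) in their promoters.

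Messenger RNA was enriched by its poly-A tail and sequenced. The CDKi+IAA libraries held between 9528000 and 18312000 counts, and the IAA libraries between 12816000 and 21819000. Of 61228 genes in the table, 18877 passed the filter on low counts and were tested. Levels are counts scaled to library size (CPM), differences are log2 fold changes of CDKi+IAA over IAA with their standard error, and a gene is called at an adjusted p under 0.05. The IAA libraries differed more from each other than the CDKi+IAA libraries did. Their log2 CPM correlated at 0.970 to 0.974 across genes, against 0.987 to 0.990 among the CDKi+IAA libraries, and the clone 1 IAA library stood furthest from its group. The epithelial markers EPCAM, KRT8, KRT18, CDH1 and CLDN4 were all counted in every library. Of 14 markers of blood, stroma and endothelium, PTPRC, CD3E, COL1A2 and CDH5 were at 0 in all 12 libraries of the 4 groups named above. The stromal collagen COL1A1 was counted in every library, at 13.9 to 40.01 CPM. The other 9, among them VWF, KDR, LYZ and CD14, stayed under 1 CPM, with a maximum of 0.904 CPM for VWF. In bulk RNA, fewer cells of a kind and less RNA per cell cannot be told apart.

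XRCC5 mRNA is no check of depletion, because the degron acts on the protein. XRCC5 had 265, 275 and 253 CPM in CDKi+IAA clones 1, 7 and 9, against 166, 219 and 231 CPM in the IAA clones. Every CDKi+IAA value lay above every IAA value, and the difference of 0.36 ± 0.13 did not pass the test (adjusted p = 0.0568). Such separation of the 2 groups, in either direction, was seen in 23.6% of all genes tested. XRCC6, which encodes the Ku70 partner, had 466, 460.5 and 541 CPM in CDKi+IAA cells, against 290.2, 378 and 386 CPM in IAA cells. It was higher by 0.48 ± 0.11 (adjusted p = 0.00377), a call lost in the fit on the 6 compared libraries alone (adjusted p = 0.0831).

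The promoters below belong to 5 genes on which the interferon and replication results turn. They cover 250 bases before to 50 after each gene's start in RefSeq (GRCh38.p14), and capitals mark every match to a searched motif on either strand. For IFI6, IFIT1 and IFI44L the motif is the ISRE core GAAANNGAA, and for MCM7 and MCM3 it is the E2F site, searched as TTTCCCGC or TTTGGCGC. The windows are chr1:27672143-27672442 (minus strand) for IFI6, chr10:89392373-89392672 (plus strand) for IFIT1, chr1:78620198-78620497 (plus strand) for IFI44L, chr7:100101348-100101647 (minus strand) for MCM7 and chr6:52284693-52284992 (minus strand) for MCM3.
IFI6: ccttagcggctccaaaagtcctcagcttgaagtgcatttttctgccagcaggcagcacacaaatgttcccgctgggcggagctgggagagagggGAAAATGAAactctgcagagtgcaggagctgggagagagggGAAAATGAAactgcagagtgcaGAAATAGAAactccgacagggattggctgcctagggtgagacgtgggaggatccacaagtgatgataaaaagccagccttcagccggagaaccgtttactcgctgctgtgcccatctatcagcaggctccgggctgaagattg
IFIT1: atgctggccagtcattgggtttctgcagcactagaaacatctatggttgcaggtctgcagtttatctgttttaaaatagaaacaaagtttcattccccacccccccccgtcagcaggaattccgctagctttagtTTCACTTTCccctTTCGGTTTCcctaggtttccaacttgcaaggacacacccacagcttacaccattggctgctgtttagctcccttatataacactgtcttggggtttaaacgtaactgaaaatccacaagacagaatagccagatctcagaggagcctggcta
IFI44L: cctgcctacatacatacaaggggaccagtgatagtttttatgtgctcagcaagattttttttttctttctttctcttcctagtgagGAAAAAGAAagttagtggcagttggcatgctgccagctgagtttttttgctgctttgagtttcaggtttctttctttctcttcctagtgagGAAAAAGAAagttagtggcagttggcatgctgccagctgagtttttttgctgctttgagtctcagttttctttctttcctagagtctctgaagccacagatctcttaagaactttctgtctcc
MCM7: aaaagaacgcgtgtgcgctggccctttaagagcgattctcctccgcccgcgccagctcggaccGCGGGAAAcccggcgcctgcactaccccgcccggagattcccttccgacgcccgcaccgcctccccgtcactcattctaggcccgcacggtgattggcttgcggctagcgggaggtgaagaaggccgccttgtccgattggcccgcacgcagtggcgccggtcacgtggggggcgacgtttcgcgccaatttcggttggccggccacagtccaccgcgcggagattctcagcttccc
MCM3: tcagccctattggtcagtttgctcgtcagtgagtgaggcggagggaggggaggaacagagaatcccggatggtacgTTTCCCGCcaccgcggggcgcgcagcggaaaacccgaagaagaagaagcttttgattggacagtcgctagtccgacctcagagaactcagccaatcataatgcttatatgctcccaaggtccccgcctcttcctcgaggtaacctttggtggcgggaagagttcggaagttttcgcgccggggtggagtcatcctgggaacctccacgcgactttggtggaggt
IFI6 had 3 ISRE core matches, which began 156 to 93 bases before its start. The ISRE core was in 13 of the 18 interferon-stimulated genes called higher that had a RefSeq promoter (72.2%), in 34 of 55 such genes tested (61.8%), and in 6.43% of the promoters of all genes tested. The E2F letters were in 6 of 11 replication and mitosis genes called higher (54.5%), in 19 of 65 tested (29.2%) and in 3.58% of promoters of all genes tested. A match is a description of the letters and not a measured site.

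Across all genes, 1113 were higher and 1383 lower in CDKi+IAA cells than in IAA cells, or 5.9% and 7.33% of those tested. The list counts of this comparison given below stand beside these shares. At least a 2-fold difference was seen in 216 of the higher and 421 of the lower genes. The median difference over all genes was -0.04, and 2396 of the 2496 called genes went the same way in all 3 clones. The groups did not overlap in 2211 of the called genes, against 23.6% of all genes tested. The calls were made on these same libraries, so neither count is separate support for them. The extent of the response rested on the libraries and the fit. Without 1 CDKi+IAA library the count was 1370 (clone 1), 1648 (clone 7) or 1595 (clone 9), and it was 3515 without the clone 1 IAA library. Fitted on the 6 compared libraries alone, with no other group to estimate the spread, 632 genes were called (262 higher and 370 lower), and 1761 with clone as a paired block in that fit.

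**Figure D1:**
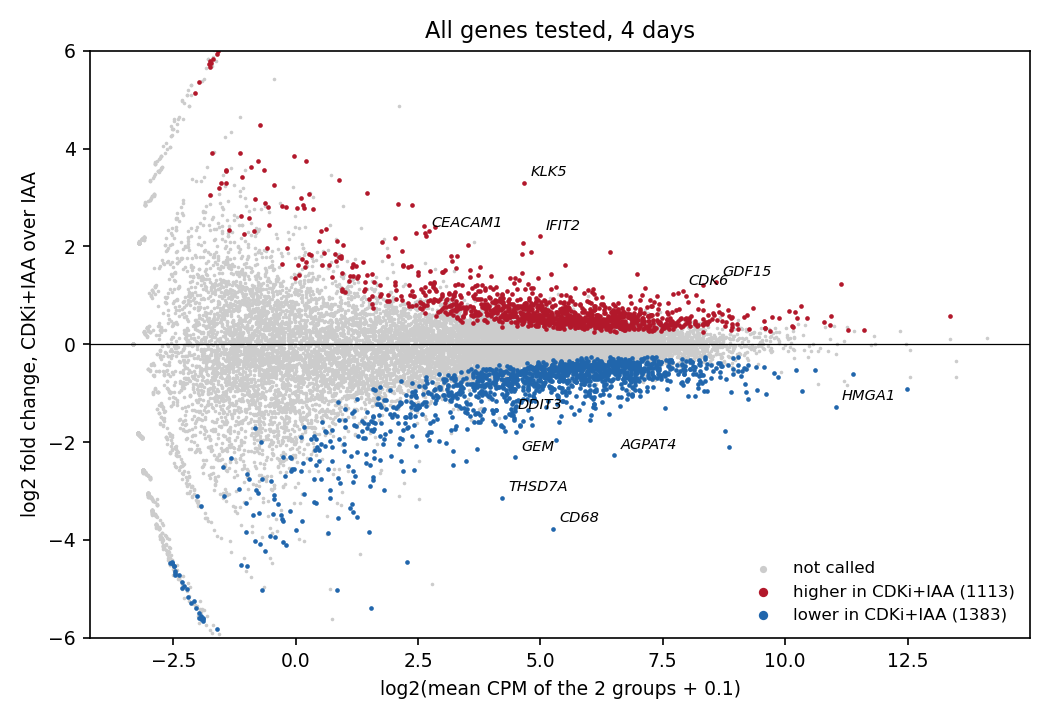
Log2 fold change of CDKi+IAA over IAA at 4 days (y axis) against log2 of the mean CPM of both groups plus 0.1 (x axis) for the genes tested; 85 genes lie beyond the y limit of 6. Red and blue points are the 1113 higher and 1383 lower genes, and KLK5 and CD68 stand at 3.31 and -3.77.

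Some interferon-stimulated genes were higher in cells that received the inhibitor on top of IAA. Of 72 tested, 22 rose, 50 were not called and none fell, with a median of 0.35, and 62 had a difference above 0. At an unadjusted p under 0.05 1 member was lower by edgeR, and among adjusted calls DESeq2 had 0 lower and limma on log2(TPM + 1) had 1. IFIT2, an RNA-binding antiviral protein, had 46.5, 54.4 and 55.0 CPM in CDKi+IAA cells, against 15.5, 6.20 and 11.999 CPM in IAA cells. The lowest CDKi+IAA library lay well above the highest IAA library, and the difference was 2.21 ± 0.33 (adjusted p = 9.16e-05). IFIT1, which binds RNA lacking the host cap methylation, had 161, 184 and 201 CPM, against 79.1, 51.4 and 72.3 CPM in IAA cells, higher by 1.43 ± 0.30 (adjusted p = 0.00222). IFI6, a mitochondrial and endoplasmic reticulum protein, had 444, 444 and 337 CPM in CDKi+IAA cells, against 286, 177 and 197 CPM in IAA cells. The groups did not overlap for either gene, and IFI6 was higher by 0.89 ± 0.21 (adjusted p = 0.00556).

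Further members rose alongside these. BST2, or tetherin, which holds enveloped virus particles on the cell, had 37.8, 51.4 and 31.96 CPM in CDKi+IAA cells, against 17.7, 6.20 and 4.50 CPM in IAA cells. The spread of BST2 in IAA cells came mostly from clone 1, and the difference was 2.08 ± 0.41 (adjusted p = 0.00125). OAS3, which makes the 2-5A that activates RNase L, averaged 503 ± 58.1 CPM in CDKi+IAA cells and 289 ± 53.8 CPM in IAA cells (SD, n = 3 each). It was higher by 0.80 ± 0.12 (adjusted p = 0.000113). ISG15, a ubiquitin-like modifier, averaged 152 ± 36.1 CPM in CDKi+IAA cells and 76.7 ± 41.6 CPM in IAA cells, higher by 0.98 ± 0.24 (adjusted p = 0.00834). UBE2L6, its conjugating enzyme, was higher by 0.97 ± 0.19 (adjusted p = 0.00109). The ISG15 call was lost without the clone 1 CDKi+IAA library (adjusted p = 0.0755). Without clone 7 in all compared groups, BST2 and IFI6 did not pass (adjusted p = 0.0544 and 0.103).

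The summed level of the interferon-stimulated list was 9523 to 10554 CPM in CDKi+IAA libraries and 6929 to 9099 CPM in IAA libraries. The clone 1 IAA library was the highest of the IAA group and lay below all CDKi+IAA libraries, but clone 1 rose least. Its sum was 9099 CPM in IAA and 9523 CPM in CDKi+IAA. The sums were 6929 and 10554 CPM in clone 7, and 7546 and 10464 CPM in clone 9. Leaving out 1 of the 6 libraries in turn gave 17 to 29 members called higher. Without the clone 1 IAA library there were 29, and without clone 7 in all compared groups there were 7. The fit on the 6 libraries alone gave 11, and that fit with clone as a paired block gave 30.

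**Figure D2:**
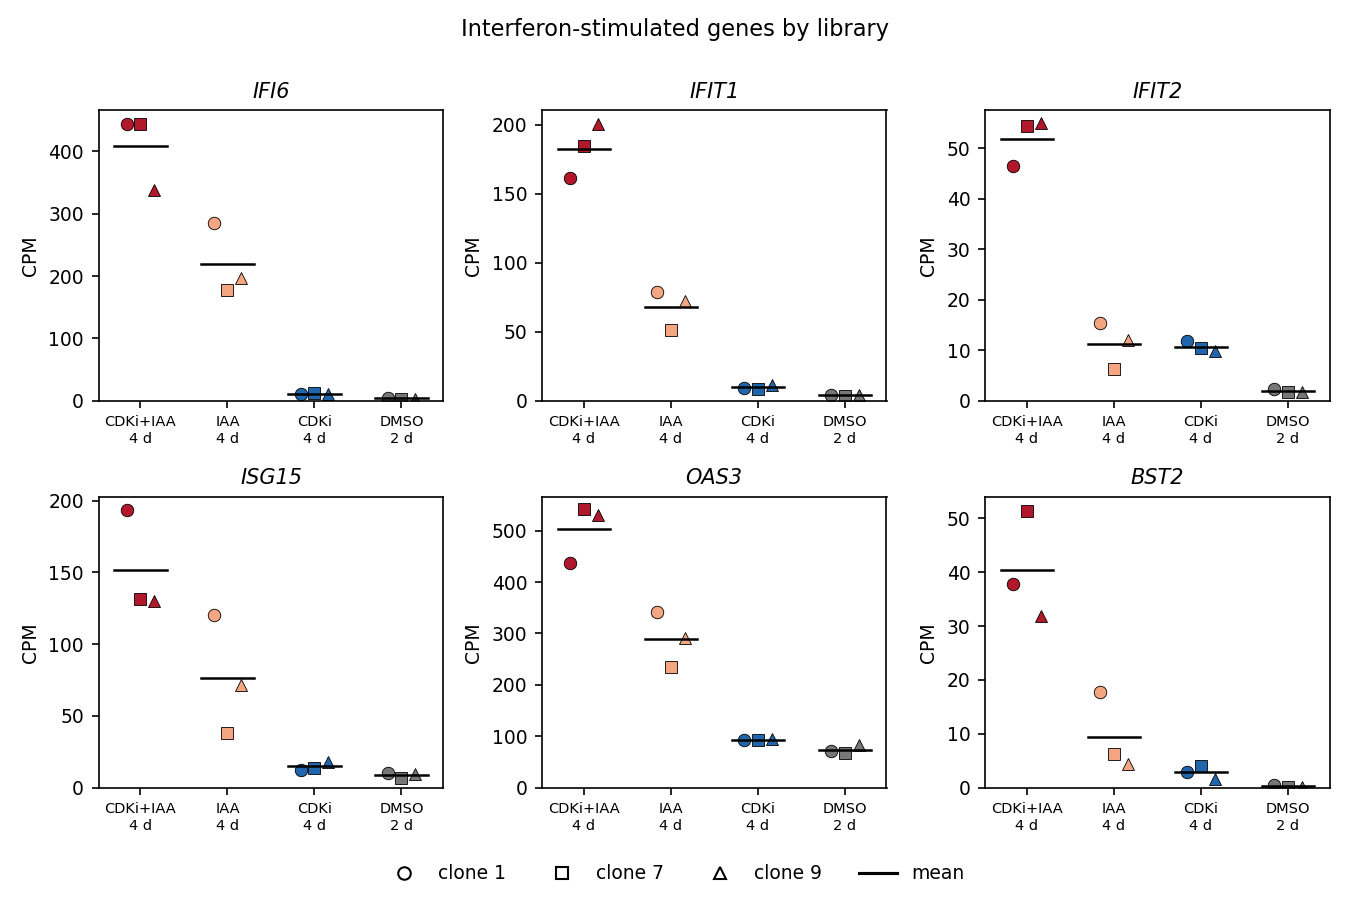
CPM (y axis) of 6 interferon-stimulated genes in CDKi+IAA, IAA, CDKi and DMSO libraries (x axis); each point is 1 library with its clone's symbol, and the bar is the mean. In all 6 genes the CDKi+IAA points lie above the IAA points, and the CDKi and DMSO levels of IFI6, at 11.6 and 3.67 CPM on average, are far lower.

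Few sensors and regulators of the interferon system were called. RIGI, a sensor of RNA with a triphosphate end, had 161, 183 and 168 CPM in CDKi+IAA cells, against 122, 121 and 131 CPM in IAA cells. These groups did not overlap either, as in 23.6% of all genes tested, and the difference of 0.45 ± 0.21 did not pass the test (adjusted p = 0.158). RIGI passed in the fit on the 6 libraries with clone as a paired block (adjusted p = 0.024). IFIH1, the sensor MDA5 of long double-stranded RNA, differed by 0.35 ± 0.20 (adjusted p = 0.239). MAVS, the adaptor of these sensors, differed by -0.13 ± 0.14 (adjusted p = 0.596), and the antigen-presentation genes HLA-B and B2M by -0.04 and 0.16 (adjusted p = 0.888 and 0.451). Of 23 RNA sensing genes, TLR3, an endosomal receptor of double-stranded RNA, rose and PRKRA, an activator of the kinase PKR, fell. This count and the other list counts of this paragraph stand beside 5.9% higher and 7.33% lower of all genes tested. TLR3 averaged 22.8 ± 1.12 CPM in CDKi+IAA cells and 8.64 ± 2.40 CPM in IAA cells, higher by 1.39 ± 0.30 (adjusted p = 0.00282). Of 18 cytokine and chemokine genes none rose by edgeR or DESeq2, although 3 were higher at an unadjusted p under 0.05 and limma on log2(TPM + 1) called 2 higher. VEGFA, the vascular growth factor, and IL15 fell. VEGFA was lower by -0.63 ± 0.11 (adjusted p = 0.000261), but by limma on log2(TPM + 1) it differed by -0.04 (adjusted p = 0.943), and limma called no member of this list lower. The IL15 call was lost in 10 of 16 alternatives, among them without any 1 of the CDKi+IAA libraries (adjusted p = 0.0809 to 0.124). The PRKRA call was lost in 7, among them the fit on the 6 libraries alone (adjusted p = 0.16). Of 24 genes of the NF-kB pathway and its targets, SOD2 rose and REL, RELA and TNFAIP3 fell. The REL call held in all 16 alternatives, whereas those of TNFAIP3, RELA and SOD2 were lost in 9, 6 and 2, including the fit on the 6 libraries alone (adjusted p = 0.256, 0.117 and 0.0888).

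The inhibitor's targets were themselves higher in CDKi+IAA cells. CDK6 had 313, 396 and 266 CPM in CDKi+IAA cells, against 123, 187 and 151 CPM in IAA cells. Its lowest CDKi+IAA library lay above its highest IAA library, and it was higher by 1.09 ± 0.18 (adjusted p = 0.000313). CDK4 had 112, 95.7 and 89.8 CPM in CDKi+IAA cells, against 62.4, 47.5 and 59.1 CPM in IAA cells, higher by 0.82 ± 0.13 (adjusted p = 0.000124). CCND3, the D-type cyclin D3, was higher by 0.74 ± 0.15 (adjusted p = 0.00169), but not in the fit on the 6 libraries alone (adjusted p = 0.0772). CCND1, cyclin D1, averaged 1395 ± 114 CPM in CDKi+IAA cells and 1044 ± 55.7 CPM in IAA cells and did not pass the test (0.42 ± 0.15, adjusted p = 0.0655). It passed with clone as a paired block (adjusted p = 0.00199). RB1 differed by -0.08 ± 0.16 (adjusted p = 0.814).

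Of the 8 CDK inhibitor genes, 2 fell, beside 7.33% of all genes tested. CDKN2B, whose product p15 binds CDK4 and CDK6, had 10.9, 11.2 and 9.07 CPM in CDKi+IAA cells, against 16.3, 24.8 and 29.2 CPM in IAA cells, lower by -1.16 ± 0.21 (adjusted p = 0.000482). CDKN1A, the p53 target p21, had 341, 276 and 233 CPM in CDKi+IAA cells, against 486, 325 and 278 CPM in IAA cells. The 2 groups overlapped (-0.36 ± 0.20, adjusted p = 0.238). Among the E2F factors, E2F8, a repressor that is itself made late in G1 and in S phase, averaged 6.75 ± 0.84 CPM in CDKi+IAA cells and 15.7 ± 2.82 CPM in IAA cells, lower by -1.21 ± 0.18 (adjusted p = 9.56e-05). E2F3 was higher by 0.58 ± 0.10 (adjusted p = 0.000351), and E2F1 was at 13.3 ± 1.24 CPM in CDKi+IAA cells and 13.2 ± 1.93 CPM in IAA cells.

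No replication gene was called lower when the inhibitor was added to IAA. Of 41 tested, 10 rose, with a median of 0.17, and 1 was called lower without the clone 1 IAA library. None was lower at an unadjusted p under 0.05 in edgeR, or called lower by DESeq2 or limma. MCM7, a subunit of the replicative helicase, had 185, 157 and 162 CPM in CDKi+IAA cells, against 110.5, 93.5 and 119.8 CPM in IAA cells. All CDKi+IAA libraries lay above all IAA libraries, and the difference was 0.64 ± 0.13 (adjusted p = 0.00141). The helicase subunits MCM2 and MCM3 were higher by 0.74 ± 0.14 and 0.62 ± 0.14 (adjusted p = 0.000805 and 0.00478). By limma on log2(TPM + 1), MCM2 differed by 0.22 and was not called (adjusted p = 0.46). TK1, thymidine kinase, was higher by 0.51 ± 0.14 (adjusted p = 0.0126), a call lost without the clone 1 CDKi+IAA library (0.0575) or the clone 7 IAA library (0.0906). Without 1 of the 6 libraries, 5 to 8 replication genes were called higher, and 3 in the fit on the 6 libraries alone.

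Mitosis genes gave 4 higher and none lower of 35, with a median of 0.16, while 1 was lower at an unadjusted p under 0.05 and neither DESeq2 nor limma called any lower. CCNB1, cyclin B1, had 86.5, 75.7 and 90.0 CPM in CDKi+IAA cells, against 37.7, 39.9 and 63.0 CPM in IAA cells, higher by 0.85 ± 0.17 (adjusted p = 0.00173). MAD2L1, of the spindle checkpoint, and CENPA, the centromeric histone, were higher by 0.84 ± 0.16 and 0.98 ± 0.24 (adjusted p = 0.00111 and 0.00804). The CENPA call was lost in the fit on the 6 libraries, without and with clone as a paired block (adjusted p = 0.157 and 0.135). MKI67, the proliferation marker Ki-67, had 284, 242 and 321 CPM in CDKi+IAA cells, against 280.3, 385 and 498 CPM in IAA cells. The 2 groups of MKI67 values overlapped and did not pass the test (-0.46 ± 0.21, adjusted p = 0.147). MKI67 was called lower in the fit on the 6 libraries with clone as a paired block (adjusted p = 0.0361) and without the clone 1 IAA library (adjusted p = 0.0348). CCNA2, cyclin A2, differed by 0.08 ± 0.22 (adjusted p = 0.871). Of the 26 homologous recombination and Fanconi genes, edgeR called none, while 3 were higher and 1 lower at an unadjusted p under 0.05. DESeq2 called 1 higher, and limma on log2(TPM + 1) called none.

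The summed levels of these genes were below those of DMSO cells in both groups. The replication list summed to 2278 to 2455 CPM in CDKi+IAA libraries and 1713 to 2099.7 CPM in IAA libraries, against 3183 to 3674 CPM in CDKi and 5280.0 to 6111 CPM in DMSO libraries. The inhibitor effect was therefore also estimated without IAA, as CDKi at 4 days against DMSO at 2 days, and the difference between the 2 effects was tested. Without IAA, 726 genes rose (3.85%) and 725 fell (3.84%), and of the 41 replication genes 29 fell, with a median of -0.64. MCM7 had 240.2, 249 and 229 CPM in CDKi cells, against 343, 412 and 360.3 CPM in DMSO cells, lower by -0.64 ± 0.13 (adjusted p = 0.00222). Its inhibitor effect with IAA minus that without IAA was 1.28 ± 0.18 on the log2 scale (adjusted p = 0.000204).

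The difference of effects was called for 414 genes in the higher direction (2.19%) and 472 in the lower (2.5%). It was higher for 22 of 41 replication genes and 13 of 35 mitosis genes. The split over all genes depended on the scale, since limma on log2(TPM + 1) called 1246 higher and 226 lower. DESeq2 called 622 and 728. Without clone 9 in all compared groups, 73 genes were called by edgeR. Of the 72 interferon-stimulated genes, 26 rose without IAA, and the difference of effects was called lower for 4. IFI6 had 11.3, 12.2 and 11.4 CPM in CDKi cells, against 4.78, 2.76 and 3.47 CPM in DMSO cells, higher by 1.68 ± 0.28 (adjusted p = 0.000425), and IFIT2 was higher by 2.45 ± 0.38 (adjusted p = 0.000201). The differences of effects for IFI6 and IFIT2 were -0.79 ± 0.35 and -0.24 ± 0.49 (adjusted p = 0.222 and 0.88). For RIGI the difference was called at -1.18 ± 0.31 (adjusted p = 0.0294).

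The 2 inhibitor comparisons share no library, but they share the same clones and the estimate of spread. Over all genes tested, their log2 fold changes correlated at only 0.04. The comparisons had 181 higher genes in common, or 16.3% of those higher with IAA and 24.9% of those higher without it. Both were lower for 190 genes, or 13.7% and 26.2%, and 68 genes went opposite ways. KLK5, a secreted serine protease of epithelia, was common to both. KLK5 had 41.7, 31.7 and 64.4 CPM in CDKi+IAA cells, against 8.91, 1.81 and 2.76 CPM in IAA cells, higher by 3.31 ± 0.50 (adjusted p = 0.0001), and it was higher by 4.74 ± 0.56 in CDKi than in DMSO cells (adjusted p = 5.11e-06). CEACAM1, an epithelial adhesion molecule, was higher by 2.27 ± 0.49 with IAA and by 3.05 ± 0.55 without it (adjusted p = 0.00261 and 0.000875), and limma on log2(TPM + 1) did not call it with IAA (adjusted p = 0.173). MXD4, a MAX partner that opposes MYC, was higher by 1.03 ± 0.18 and by 1.49 ± 0.19 (adjusted p = 0.000455 and 1.08e-05). GEM, a small GTPase, was lower by -2.30 ± 0.25 with IAA and by -1.94 ± 0.26 without it (adjusted p = 2.85e-06 and 2.56e-05).

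**Figure D3:**
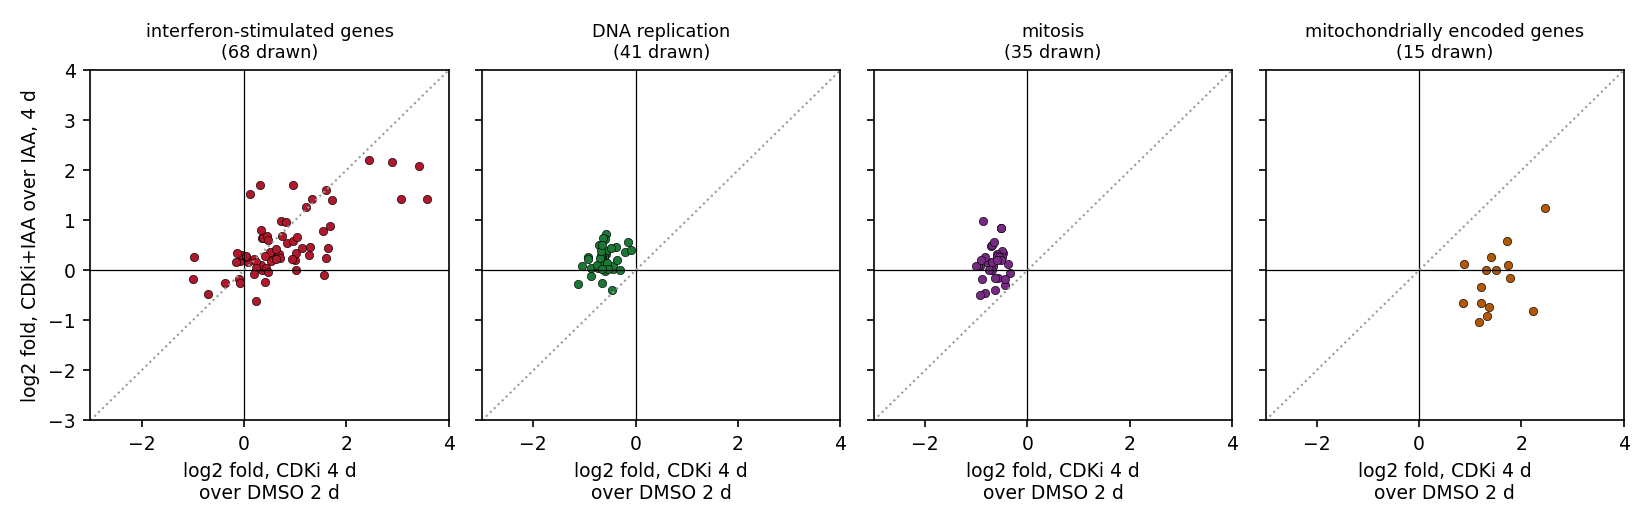
Inhibitor effect with IAA (CDKi+IAA over IAA, 4 days, y axis) against that without IAA (CDKi 4 days over DMSO 2 days, x axis), both log2, for members of 4 lists with counts in every group; the dotted line marks equal effects. Replication and mitosis genes lie left of 0 with most of them above 0 on the y axis, the 15 mitochondrially encoded genes lie right of 0, and interferon-stimulated genes are mostly above 0 on both axes.

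Several of the largest falls were in genes with higher levels in IAA than in DMSO cells. These genes were picked by their fall from the same IAA libraries, which favours high IAA values. DMSO cells were also taken at 2 days and without doxycycline, and a return to their level was not tested. CD68, a lysosomal glycoprotein, had 5.09, 6.65 and 3.71 CPM in CDKi+IAA cells, against 114, 55.9 and 45.1 CPM in IAA cells, lower by -3.77 ± 0.47 (adjusted p = 1.22e-05). In DMSO cells CD68 stood at 5.74, 7.40 and 2.38 CPM, which overlapped the CDKi+IAA libraries. AGPAT4, an acyltransferase of phospholipid synthesis, had 32.4, 31.3 and 30.1 CPM in CDKi+IAA cells, against 199, 143 and 109.6 CPM in IAA cells and 18.4, 20.4 and 16.6 CPM in DMSO cells. It was lower by -2.27 ± 0.21 (adjusted p = 1.75e-07), and the clone 1 IAA library was the highest for both genes. THSD7A, a membrane protein with thrombospondin repeats, had 3.65, 2.16 and 5.77 CPM in CDKi+IAA cells, against 33.6, 20.3 and 46.1 CPM in IAA cells, lower by -3.14 ± 0.60 (adjusted p = 0.00112). It had no counts in the DMSO libraries.

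HMGA1, an architectural chromatin protein, had 1293, 1218 and 1159 CPM in CDKi+IAA cells, against 4073, 2526 and 2286 CPM in IAA cells. Every CDKi+IAA library lay below every IAA library, and it was lower by -1.28 ± 0.18 (adjusted p = 4.41e-05). The other genes named among the largest falls were CFAP20DC, OR10H1, RNASE1 and CYP46A1, between -2.57 and -2.29, with adjusted p between 3.46e-06 and 0.000805. MALLP1, a pseudogene, and CHURC1-FNTB, a readthrough transcript, were also among them, and their counts can be split with near-identical or overlapping genes. The MALLP1 call was lost in 11 of 16 alternatives, including DESeq2 (adjusted p = 0.142) and clone as a paired block (adjusted p = 0.0522), and that of CHURC1-FNTB in 5. The other largest rises were BANK1, SNTB1, IFI44L, VSNL1 and IGSF9, between 2.10 and 2.42, and the olfactory receptor pseudogenes OR51A10P and OR51K1P. The calls of SNTB1, VSNL1 and IGSF9 were each lost without at least 1 library, among them clone 9 CDKi+IAA for SNTB1 (adjusted p = 0.0529) and clone 7 CDKi+IAA for VSNL1 and IGSF9 (adjusted p = 0.0893 and 0.091). For IFI44L, an interferon-stimulated gene, CDKi+IAA cells had 5.86, 15.6 and 11.03 CPM, against 2.23, 3.13 and 1.11 CPM in IAA cells.

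**Figure D4:**
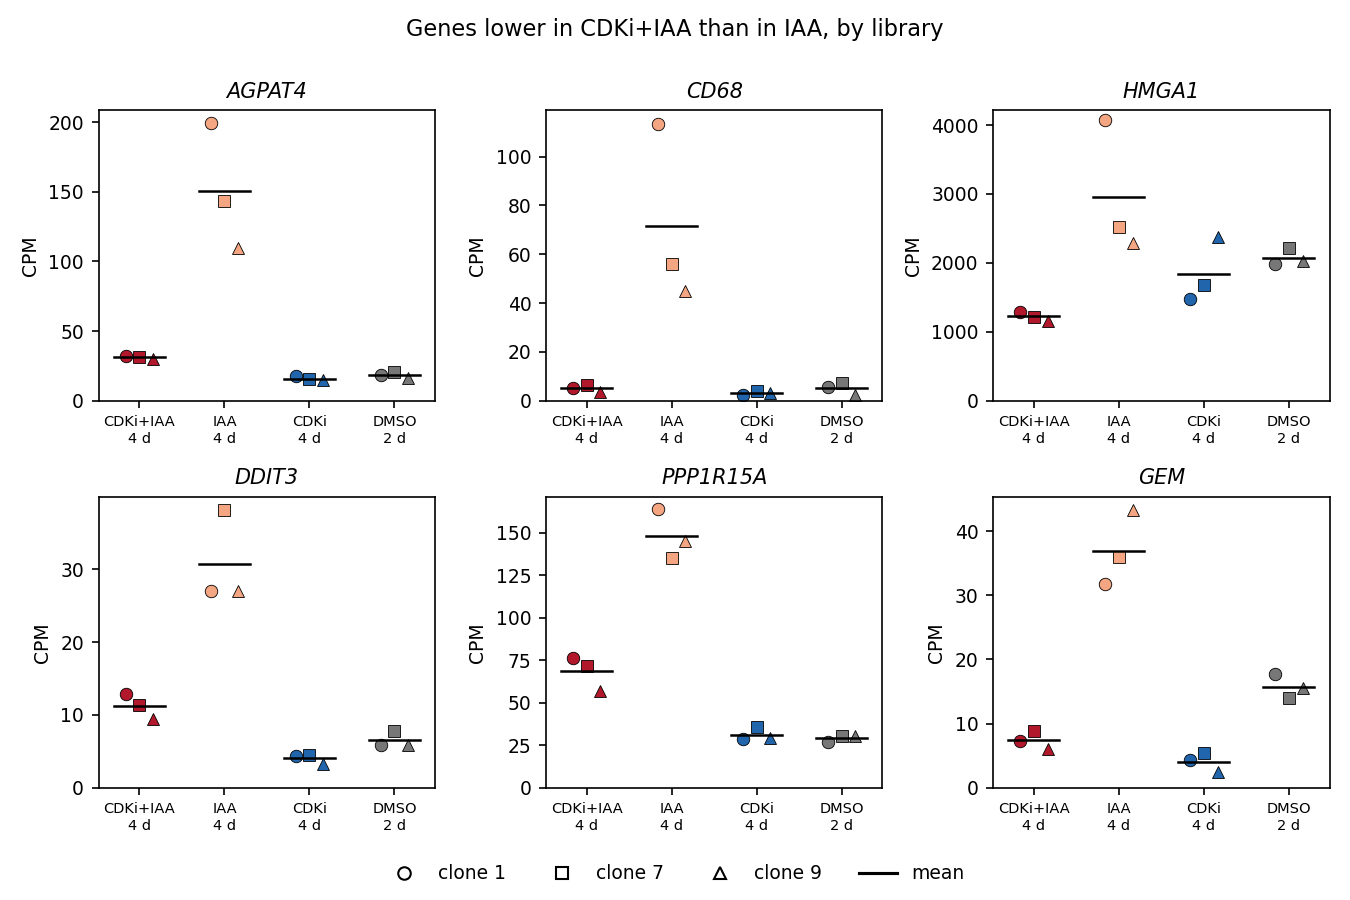
CPM (y axis) of 6 genes lower in CDKi+IAA than in IAA libraries, shown with the CDKi and DMSO libraries (x axis); each point is 1 library with its clone's symbol, and the bar is the mean. For CD68 the CDKi+IAA points lie at 3.71 to 6.65 CPM and the IAA points at 45.1 to 114 CPM.

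The integrated stress response, in which phosphorylated eIF2 slows translation and raises ATF4, had members called in both directions. Of 34 members tested, 6 fell and 4 rose, beside 7.33% lower and 5.9% higher of all genes tested. DDIT3, the factor CHOP, had 12.8, 11.4 and 9.49 CPM in CDKi+IAA cells, against 27.0, 38.2 and 27.0 CPM in IAA cells, lower by -1.45 ± 0.22 (adjusted p = 0.000102). ATF4 itself averaged 229 ± 8.00 CPM in CDKi+IAA cells and 387 ± 65.0 CPM in IAA cells, lower by -0.76 ± 0.15 (adjusted p = 0.0011). PPP1R15A, which directs dephosphorylation of eIF2 and was chosen after its values were seen, was lower by -1.11 ± 0.22 (adjusted p = 0.00139). The members that rose include enzymes of serine synthesis. PSAT1 had 67.3, 68.8 and 54.6 CPM in CDKi+IAA cells, against 29.5, 28.2 and 44.6 CPM in IAA cells, higher by 0.91 ± 0.18 (adjusted p = 0.00125), and PSPH was higher by 0.83 ± 0.13 (adjusted p = 0.000187). PHGDH, the first enzyme of that path, was higher by 0.66 ± 0.20 (adjusted p = 0.0289) with overlapping groups, and its call was lost without 1 of 3 libraries, among them the clone 1 CDKi+IAA library (adjusted p = 0.2).

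Among 47 p53 targets, 7 rose and 3 fell, with a median of 0.03. This count and that of the sterol genes stand beside 5.9% higher and 7.33% lower of all genes tested. GDF15, a stress-induced secreted cytokine, had 661, 513 and 459.7 CPM in CDKi+IAA cells, against 269, 202 and 207 CPM in IAA cells, higher by 1.27 ± 0.18 (adjusted p = 4.41e-05). GADD45A, a growth-arrest protein, was lower by -0.94 ± 0.15 (adjusted p = 0.000156). Of 26 sterol genes, 6 fell and 1 rose. STARD4, a sterol carrier, and INSIG1, which holds SREBP in the endoplasmic reticulum, were lower by -1.19 ± 0.20 and -0.93 ± 0.16 (adjusted p = 0.000322 and 0.000379), while CYP51A1, of the synthesis path itself, was higher by 0.69 ± 0.16 (adjusted p = 0.00457).

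Some ribosome genes were higher in CDKi+IAA cells, and most were not called. Of 36 ribosome biogenesis genes, 10 rose and 1 fell, with a median of 0.32, and of 40 cytosolic ribosomal protein genes, 11 rose and 1 fell, with a median of 0.22. POLR1B, the second largest subunit of RNA polymerase I, had 113, 117 and 108 CPM in CDKi+IAA cells, against 65.3, 77.9 and 69.3 CPM in IAA cells, higher by 0.67 ± 0.12 (adjusted p = 0.000399). RPL3 was higher by 0.54 ± 0.10 (adjusted p = 0.000629) and RPS25, chosen after its values were seen, lower by -0.70 ± 0.15 (adjusted p = 0.00255). RPL and RPS genes have many processed pseudogenes that can take part of their reads. Abundant genes were called more often in general, with 9.87% higher and 11.6% lower among the most abundant of 4 equal groups of genes ranked by level. The 18 reference genes, often used as housekeeping genes, gave 7 higher and 2 lower. The part of level in the ribosome counts was not tested. Without 1 of the 6 libraries, 5 to 10 ribosome biogenesis genes and 7 to 19 ribosomal protein genes were called higher. With clone as a paired block in the fit of all degron libraries, 17 ribosome biogenesis genes were higher. Without clone 1, 7 or 9 in all compared groups there were 3, 4 and 6 ribosome biogenesis genes and 5, 7 and 8 ribosomal protein genes.

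EIF3B, a subunit of the eIF3 initiation complex, had 90.9, 89.7 and 124 CPM in CDKi+IAA cells, against 44.6, 45.4 and 64.9 CPM in IAA cells, higher by 0.97 ± 0.15 (adjusted p = 0.000152). EIF3C was higher by 1.05 ± 0.21 (adjusted p = 0.00156), and EIF3K was the only other of 13 subunits to be called. The EIF3K call was lost in 9 of 16 alternatives, including both fits on the 6 libraries (adjusted p = 0.173, and 0.0695 with clone as a paired block), and limma on log2(TPM + 1) did not call EIF3C (adjusted p = 0.289). The poly-A selected libraries also carried mitochondrially encoded transcripts, at 7.08% to 9.76% of counts in CDKi+IAA and 7.79% to 10.47% in IAA libraries. Of 15 such genes, MT-RNR1 and MT-RNR2, the mitochondrial ribosomal RNAs, rose and MT-ND6 and MT-ATP6 fell. MT-RNR1 had 3367, 3125 and 2979 CPM in CDKi+IAA cells, against 1412, 1269 and 1332 CPM in IAA cells, higher by 1.24 ± 0.21 (adjusted p = 0.000278). MT-ATP6 did not pass with clone as a paired block (adjusted p = 0.0601), and MT-ND6 did not pass without the clone 1 CDKi+IAA library (adjusted p = 0.0794) or without either of the other CDKi+IAA libraries. Without IAA, all 15 were higher in CDKi at 4 days than in DMSO at 2 days, and the difference of effects was called lower for 14 of them. Mitochondrial transcripts were 9.40%, 8.67% and 16.05% of counts in CDKi clones 1, 7 and 9, against 4.16% to 5.47% in DMSO libraries. The clone 9 CDKi library thus stood apart, and time and inhibitor cannot be told apart here. In IAA libraries the share was 4.61% to 4.63% at 2 days.

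**Figure D5:**
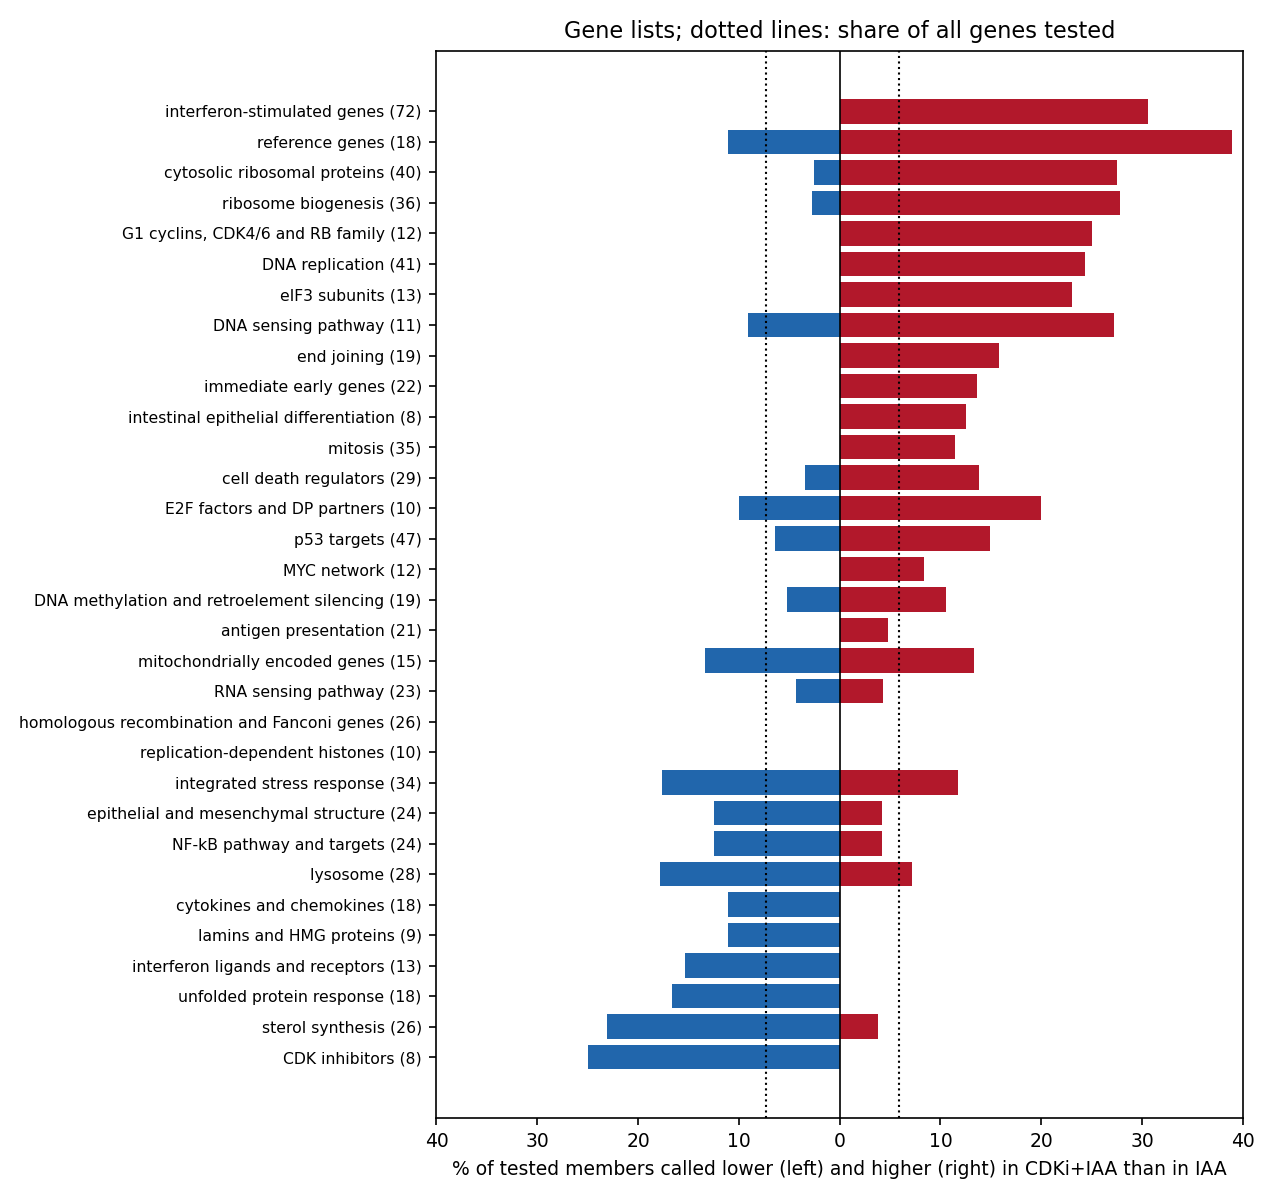
Share of tested members (number in brackets) of each gene list called higher (right, red) or lower (left, blue) in CDKi+IAA than in IAA cells; dotted lines mark the 5.9% and 7.33% of all genes tested. Interferon-stimulated genes show 22 of 72 higher and none lower, and sterol synthesis 6 of 26 lower.

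At 2 days the same treatments gave 4306 higher (22.8%) and 2789 lower genes (14.8%), in 2 CDKi+IAA and 3 IAA libraries. These counts cannot be told apart from a difference in how the libraries were made. The 2-day CDKi+IAA libraries held 107.7 and 219.1 counts of the 5.8S rRNA, against 0 in the 2-day IAA libraries, and their titles give hours where the IAA titles give days. The direction depended on the scale, since limma on log2(TPM + 1) called 2020 higher and 7389 lower. Of the genes higher at 4 days, 656 were higher and 27 lower at 2 days, and of those lower at 4 days, 653 were lower and 120 higher. KLK5 was higher by 3.27 and IFI6 by 1.89 at 2 days.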

How the data were processed

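Messenger RNA of HCT116 Ku80-AID cells was sequenced after poly-A enrichment, per the labels' protocols. The values are estimated counts per gene deposited by the authors, with no normalization, and the authors also deposited TPM for the same genes. The submitters' processing notes name Salmon 1.10.2, kallisto 0.50.0, DESeq2 and GRCh38, and which tool made the table is not given in the sources used here. Estimated counts were rounded to whole numbers. edgeR 4.0.16 in R 4.3.3 (TMM factors, filterByExpr by group, quasi-likelihood test, Benjamini-Hochberg adjustment at 0.05) was fitted once to 32 degron libraries in 12 groups, and comparisons were taken as contrasts. The 12 groups share an estimate of the spread, and they include MAVS-knockout degron clones in DMSO or IAA for 4 days. This main fit had no term for clone, which entered only in the alternatives with clone as a block. CPM of single genes uses the same factors. The summed levels of lists and the CPM given for the cell type markers COL1A1 and VWF were scaled to library totals without these factors. DESeq2 1.42.0 on the rounded counts and limma 3.58.1 on log2(TPM + 1) were alternatives, and the script was tested on simulated data.

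Genes are named by 4 rules. These are the 10 largest changes each way among called genes with at least 5 CPM in the higher group and the same sign in all 3 clones, the 4 smallest adjusted p-values of each list, a short list of pathway genes, and the 5 largest differences of effects each way. The comparison, the lists and the genes were chosen with earlier results of these data known. Same-numbered libraries come from the same clone, so the numbers pair them. Deviations from the group means correlated at 0.226, 0.110 and 0.134 within clones 1, 7 and 9, and at -0.161 to 0.038 between clones. Totals of 9528000 to 21819000 counts set the precision, and genes near 0 have wide errors. Replicates differed by more than sampling noise, so no library was counted as a duplicate.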

Additional observations from a re-analysis of the deposited data

Results flagged for a closer look

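For the genes in this section the inhibitor effect with IAA (CDKi+IAA over IAA, 4 days) differed from that without IAA (CDKi 4 days over DMSO 2 days) in edgeR's test of the difference itself, at an adjusted p under 0.05. Values are the effect with IAA minus the effect without it, on the log2 scale. The DMSO libraries were taken at 2 days, and the groups without IAA also lacked doxycycline. Time, IAA and doxycycline therefore cannot be told apart in this difference.

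Replication and mitosis genes had positive differences. These were 1.32 for MCM2, 1.28 for MCM7, 1.22 for MCM3 and 1.22 for TK1, and 1.84 for CENPA, 1.36 for MAD2L1 and 1.35 for CCNB1. LMNB1, which encodes lamin B1, had 0.95, RBL1, which encodes the RB relative p107, had 0.88, CDK4 had 0.65 and XRCC6 had 0.72. The serine synthesis genes PHGDH, PSAT1 and PSPH had 1.90, 1.56 and 0.75, EIF3C and EIF3B had 1.42 and 1.14, and CYP51A1 had 0.80. P2RY1, a nucleotide receptor, had 2.42, FSD1 had 2.10 and MAGEA2, a cancer-testis antigen with near-identical relatives, had 1.77. P2RY1 stood at 1.61, 2.43 and 3.51 CPM in CDKi+IAA cells, against 1.23, 1.08 and 1.11 CPM in IAA cells, and at 3.28, 2.78 and 3.16 CPM in CDKi cells, against 8.22, 8.13 and 6.24 CPM in DMSO cells.

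Negative differences were seen for CD68 at -3.06, AGPAT4 at -2.05, KRTAP2-4 at -2.80 and HMGA1 at -1.11. The mitochondrially encoded MT-ATP8, MT-ATP6, MT-ND6, MT-RNR1 and MT-RNR2 had -3.04, -2.26, -2.21, -1.22 and -1.14. The spread of MT-ATP8 was wide, with 1597, 1352 and 576 CPM in CDKi+IAA cells, against 3982, 1126 and 1125 CPM in IAA cells. The RNA sensor gene RIGI had -1.18, CDKN2B had -1.09, CFLAR, an inhibitor of caspase-8 activation, had -1.07, TJP1, of tight junctions, had -0.73, and GADD45A had -0.87. The lysosomal protease TPP1 had -1.06 and TFE3, a factor that drives lysosomal genes, had -0.81. The NF-kB subunits REL and RELA had -0.73 and -0.53. The pseudogenes RPL17P6 and MALLP1 had -3.27 and -9.80, and their counts can be shared with near-identical genes. MALLP1 was near 0 in DMSO cells (0, 0 and 0.198 CPM), so its fitted value is no measure of size.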

How the results depend on the processing

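The number of called genes at 4 days (2496, of which 637 at least 2-fold) was 632 and 241 in a fit of the compared groups alone, and 24.6% of the calls remained. That fit has fewer libraries to estimate the spread. The main fit shares its spread with groups outside the comparison, while the IAA libraries differed more from each other than the CDKi+IAA libraries. What lowered the count was not tested. Leaving out 1 library in turn gave 1370 to 3515 genes, 404 to 986 at least 2-fold, 410 to 1466 for the difference of effects (886) and 4653 to 6647 at 2 days (7095). Leaving out clone 1, 7 or 9 in all compared groups gave 1646, 861 and 1047 genes at 4 days, 551, 333 and 383 at least 2-fold, 347, 135 and 73 for the difference, and 4605, 5948 and 4234 at 2 days. For the difference, DESeq2 called 1350, limma on log2(TPM + 1) 1472, the compared groups alone 438, and those with clone as a replicate block 384. With clone as a replicate block in the fit of all degron libraries, the pairing gave 2868, 637, 1186 and 7107 genes for these 4 counts, and 96.1% of the 4-day calls remained. Of the 4-day calls, 99.2% remained with RLE factors, 97.9% with DESeq2, 75.0% with no filter on low counts and 59.3% with limma on TPM, where 24 had the opposite sign. No value of a named gene reversed while called, and list counts were compared by size alone. For the named genes and list counts, without these totals, 3251 values stayed on the same side of the threshold or near the main count, 276 moved, 342 lost their call and 85 gained one. With 3 clones and 1 library each, small differences in genes of low count could not be detected.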

Other observations

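Lysosomal genes were called in both directions. Of 28 tested, 5 fell and 2 rose, with a median of 0.03, beside 7.33% lower and 5.9% higher of all genes tested. NPC1, which exports cholesterol from lysosomes, had 74.5, 72.5 and 71.5 CPM in CDKi+IAA cells, against 140.2, 125 and 119 CPM in IAA cells, and was lower by -0.81 ± 0.13 (edgeR, adjusted p = 0.000161). GUSB, a lysosomal glucuronidase, was lower by -0.83 ± 0.14 (adjusted p = 0.000323), and the factor TFE3 by -0.75 ± 0.10 (adjusted p = 3e-05), although limma on log2(TPM + 1) did not call TFE3 (adjusted p = 0.0854). All CDKi+IAA libraries of these genes lay below all IAA libraries. Of 18 genes of the unfolded protein response, 3 fell and none rose, while 1 was higher at an unadjusted p under 0.05, DESeq2 called none higher and limma 1. Over all genes tested, 7.33% were called lower. By limma on log2(TPM + 1), 1 member of this list was called lower. SEL1L and EDEM1 were among the falls, and their calls were lost in 10 and 7 of 16 alternatives. Both were lost in the fit on the 6 libraries alone (adjusted p = 0.204 and 0.0766). ERN1, the sensor IRE1, had 48.0, 45.4 and 44.0 CPM in CDKi+IAA cells, against 76.1, 76.7 and 78.0 CPM in IAA cells, lower by -0.75 ± 0.13 (adjusted p = 0.000452).

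Of 29 cell death regulators, 4 rose and 1 fell. BID, a BH3 protein that links caspase-8 to mitochondria, had 58.2, 58.1 and 55.5 CPM in CDKi+IAA cells, against 35.5, 35.0 and 36.9 CPM in IAA cells, higher by 0.68 ± 0.11 (edgeR, adjusted p = 0.000199). CFLAR was lower by -0.71 ± 0.14 (adjusted p = 0.00135). Of 22 immediate early genes, 3 rose, beside 5.9% of all genes tested. EGR2 and DUSP6 were among them, and their calls were lost in 11 and 8 of 16 alternatives. For EGR2 these included both fits on the 6 libraries (adjusted p = 0.191, and 0.183 with clone as a paired block). FOS, a subunit of AP-1, had 19.9, 28.0 and 12.99 CPM in CDKi+IAA cells, against 11.002, 4.64 and 4.50 CPM in IAA cells, higher by 1.59 ± 0.30 (adjusted p = 0.000849). The FOS call was lost without clone 7 in all compared groups (adjusted p = 0.0676). Of 24 genes of epithelial and mesenchymal structure, KRT8 rose by 0.68 ± 0.14 (adjusted p = 0.00159) and 3 fell, among them TJP1, which had 317, 312 and 316 CPM in CDKi+IAA cells, against 444, 543 and 505 CPM in IAA cells (adjusted p = 0.000124). STING1, the adaptor of cytosolic DNA sensing, had 22.4, 22.7 and 22.0 CPM in CDKi+IAA cells, against 14.6, 5.24 and 10.5 CPM in IAA cells, higher by 1.14 ± 0.34 (adjusted p = 0.0259). The STING1 call was lost in 9 of 16 alternatives, among them 5 of the 6 that leave out a single compared library (adjusted p = 0.0547 to 0.134), and of its list of 11 DNA sensing genes 3 rose and 1 fell, with a median of -0.20. Of the remaining lists, 3 of 19 end joining genes rose, 2 of 13 interferon ligands and receptors fell, and 2 of 19 genes of DNA methylation and retroelement silencing rose and 1 fell. Over all genes tested, 5.9% were called higher and 7.33% lower. By limma on log2(TPM + 1) no member of the interferon ligand and methylation lists was called. JAK1 and IFNGR2 lost their calls in 12 and 5 of 16 alternatives, UHRF1, TRIM28 and DNMT3A in 10, 5 and 3, and POLQ, XRCC6 and PARP1 in 7, 2 and 1.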
